A study of Gallus gallus with 18 samples.

Results

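T2 is the topologically associating domain (TAD, a stretch of chromatin that contacts itself more than its surroundings) that holds the chicken alpha-globin genes on chromosome 14. It was taken as the 40 bins of 5 kb that start at 12065000 to 12260000 of galGal4, a stretch of 200 kb. Its members are the 780 pairs of different bins with both bins in this stretch, of 11325 such pairs in the whole C-TALE map (bins starting at 11700000 to 12450000). C-TALE is a form of capture Hi-C in which a DpnII Hi-C library is enriched with baits made from bacterial artificial chromosomes. A run of 4 bins of T2 (starting at 12175000 to 12190000) held no values in any map, so 630 pairs of T2 and 9045 pairs of the map were measured. The study compared induced erythroblasts, proliferating erythroblasts and lymphoid cells by C-TALE, 5C and RNA-seq, to relate globin transcription to the folding of its surroundings.

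The groups were HD3dif, HD3pr and DT40. HD3pr are proliferating cells of HD3, a single line of chicken erythroblasts transformed by avian erythroblastosis virus. HD3dif are the same line kept for 14 h at 42 °C in medium with HEPES (10 mM) and the kinase inhibitor iso-H-7 (20 µM). DT40 is a chicken lymphoid line from a bursal lymphoma caused by avian leukosis virus. The 3 groups are thus transformed lines. By the study's methods, HD3pr and DT40 were grown below 42 °C, in an atmosphere with carbon dioxide, and HD3dif were induced in air alone. Induction thus combined an inhibitor, a buffer, a rise in temperature and a change of atmosphere. HD3 and DT40 differ in lineage and in line, which cannot be told apart. Each group had 1 C-TALE map, made by summing 2 replicates before correction, so no spread between replicates and no p-value can be had for C-TALE. 5C and RNA-seq had 2 libraries per group. The study's methods call the replicates biological, but the labels do not say whether they came from separate cultures, so p-values measure only the spread between these libraries.

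A TAD can be split by weaker internal borders into sub-TADs, within which enhancers and promoters meet more often than across the border. In birds the alpha-globin genes are switched on in red cells by a major regulatory element (MRE), an enhancer that lies in an intron of the neighbouring gene NPRL3, which codes for a regulator of mTORC1. On the study's map the upstream end of T2 carries the MRE, the NPRL3 promoter, the globin genes HBZ (embryonic pi globin), HBAD (alpha-D) and HBA1 (alpha-A) and the near part of TMEM8A, a membrane protein gene. MRPL28 (a mitochondrial ribosomal protein), AXIN1 (a scaffold of Wnt signalling), PDIA2 (a disulfide isomerase) and an RGS gene follow downstream. Genes were not assigned to single bins, since no annotation of galGal4 was used here, and bins are called by their start.

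The study marked 4 landmarks along T2 with 3C primers. They are shown, 5′ to 3′, to identify the enhancer, a globin promoter and the promoters of the 2 genes that follow, and their bins were not looked up.
MRE: cttttgaagccaatgtctctc
αD promoter: gtcaatttcaaggcaagca
TMEM8A promoter: ctgtcagagggcacaccg
MRPL28 promoter: tggtgctgcacaaggtcc

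The T2 pairs held 54599 read pairs in HD3dif, 90920 in HD3pr and 93041 in DT40. The median T2 pair had 58 read pairs in HD3dif, 101.5 in HD3pr and 110 in DT40, so the HD3dif map is the least precise. The bins on either side of the gap (starting at 12170000 and 12195000) had 652 to 744 read pairs in HD3dif, against 2454 to 9635 in the other T2 bins, so their 69 pairs are the least precise. Contact below is the deposited contact after iterative correction, scaled so that the pairs of measured bins of each map sum to 1000000 contact units. Iterative correction divides by each bin's overall visibility until all bins have equal totals. It therefore takes out part of a change that all bins of a block share, and ratios of read pairs before correction are given beside it. Their 95% intervals are exact and cover counting error only.

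The 3 maps of T2 were alike in outline. Over the 630 measured pairs, Spearman's correlation of contact was 0.931 between HD3dif and HD3pr, 0.922 between HD3pr and DT40, and 0.907 between HD3dif and DT40. With the common fall of contact with distance removed, by dividing each contact by the mean of its map at the same distance (observed over expected), the correlation was 0.748, 0.755 and 0.676 in the same order. These are descriptions over bin pairs that share bins and libraries. T2 made up 16.0% of corrected contact in HD3dif, 14.6% in HD3pr and 14.4% in DT40, and 15.6%, 15.3% and 15.3% of read pairs in the same order.

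**Figure D1:**
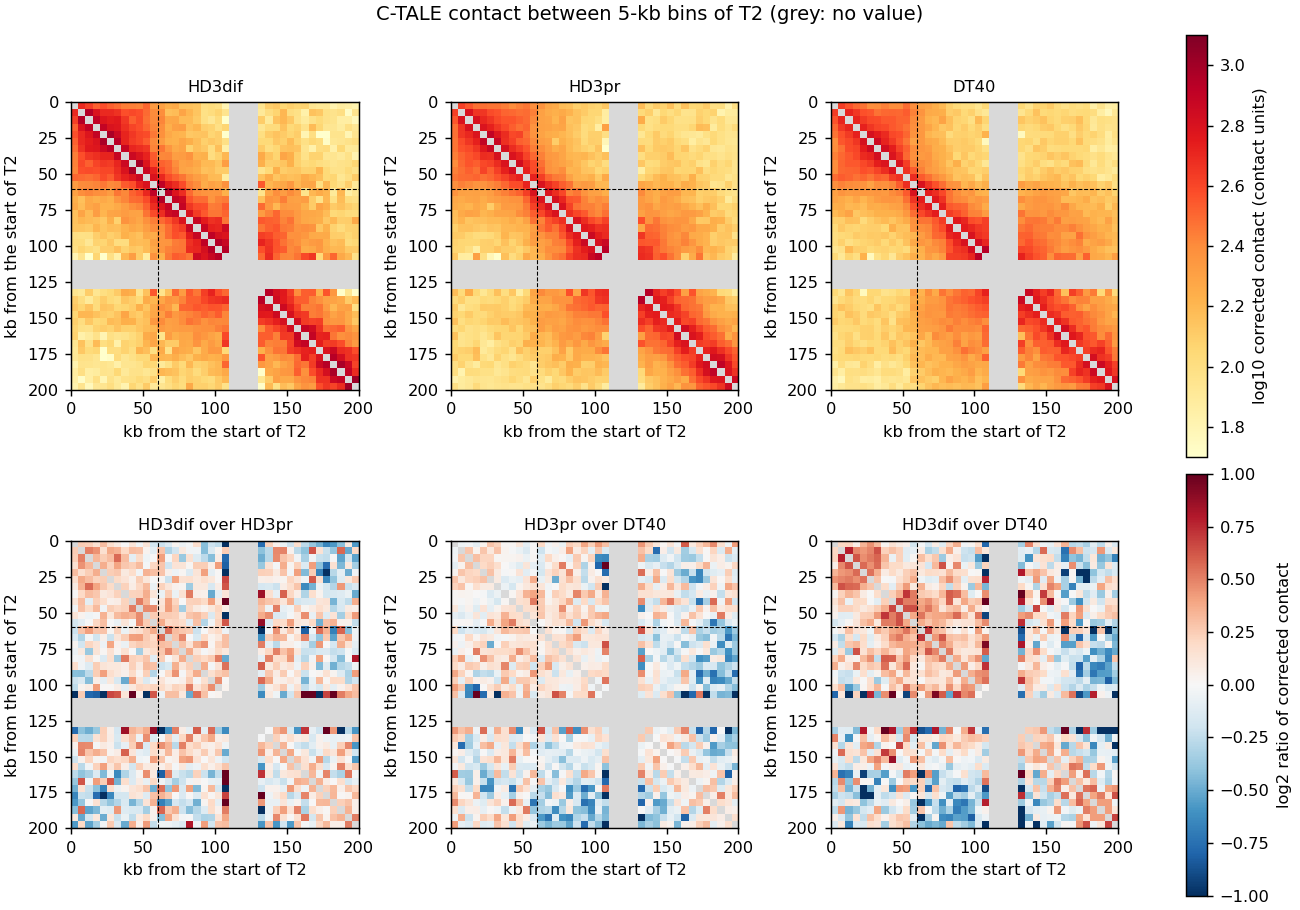
C-TALE contact between the 5-kb bins of T2, with both axes in kb from the start of T2. The upper row shows log10 contact units in HD3dif, HD3pr and DT40 and the lower row log2 ratios between cell types, cut off at 1 in either direction. Dashed lines mark the second border, 60 kb into T2. HD3dif contact was higher mainly in the upper left block and near the diagonal, and the scattered extreme values beside the grey gap belong to bins with few read pairs.

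T2 bins kept more of their contacts within T2 after induction. For each bin, the share of its contacts that ended in another bin of T2 had a median of 62.5% in HD3dif, 56.1% in HD3pr and 56.05% in DT40 over the 36 measured bins. The share was higher in HD3dif than in HD3pr in 35 of 36 bins, with a median difference of 5.47 percentage points, and higher than in DT40 in all 36 bins, by a median of 5.75 points. The exception was the first bin of T2, starting at 12065000, with 42.5% in HD3dif and 43.3% in HD3pr. Shares of read pairs before correction gave the same counts, 35 and 36 bins. Bins of the adjoining stretches of the map went the same way for the share of corrected contacts kept within their own stretch. HD3dif was higher than HD3pr in 34 of 36 bins upstream and 31 of 34 downstream. It was higher than DT40 in 33 of 36 and 34 of 34, so the direction was not particular to T2.

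In the 12 bins upstream of the second border, which hold the globin genes on the study's map, the share had a median of 60.2% in HD3dif, 53.5% in HD3pr and 50.9% in DT40. All 12 of these bins were higher in HD3pr than in DT40, with differences of 1.35 to 4.65 percentage points. In the 24 measured bins further downstream the median share was 63.3% in HD3dif, 57.6% in HD3pr and 57.6% in DT40, and 11 of these bins were higher in HD3pr than in DT40. The 2 HD3 maps thus stood above DT40 upstream of the border, and HD3dif alone stood above the other maps downstream of it.

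The same measure in the adjoining stretches of the map shows how far this was a feature of T2. Of the 36 T2 bins, 28 had a share of read pairs higher in HD3dif than in HD3pr with intervals that did not overlap, against 62.3% of 106 bins over T2 and the stretches on both sides of it. The median difference between HD3dif and HD3pr was 2.23 percentage points in the upstream and 2.78 points in the downstream stretch, so a larger share was seen there too, though smaller than the 5.47 points of T2. For HD3pr against DT40, 8 of 36 T2 bins were higher with intervals apart, against 18.9% of the 106 bins. For HD3dif against DT40 it was 24 of 36, against 64.2%. Lower with intervals apart were 2 of 36 bins in HD3pr over DT40, against 3.77%. The counts in the comparisons with DT40 lie close to their backgrounds. The downstream stretch has 34 bins and reaches the end of the map, which raises its shares, and the differences between stretches had no test. Unlike T2, the stretches were not fitted to domains, so the sizes of the differences cannot be set directly against each other. The share and the stretches were chosen after the data were seen.

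**Figure D2:**
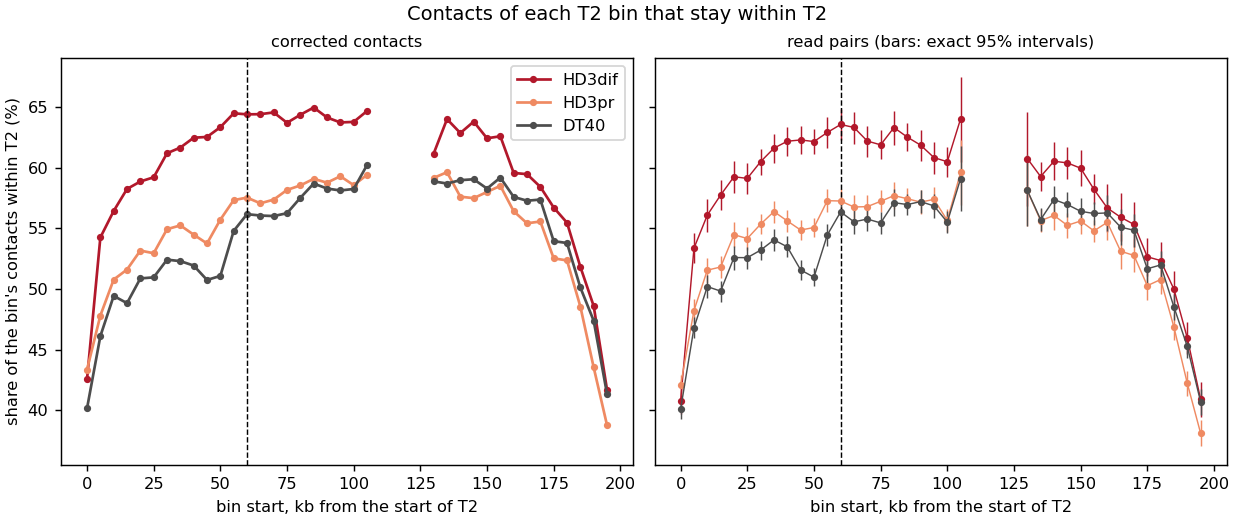
Share of the contacts of each T2 bin that ended within T2, against the start of the bin in kb from the start of T2, for corrected contacts (left) and read pairs with exact 95% intervals (right). HD3dif lies above HD3pr in all bins but the first in both panels, and HD3pr lies above DT40 in all 12 bins left of the dashed second border.

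Within the globin sub-TAD, the 66 pairs among the first 12 bins, mean contact was 476 units in HD3dif, 404 in HD3pr and 380.0 in DT40. Contact was higher in HD3dif than in HD3pr in 55 of 66 pairs (83.3%) and higher than in DT40 in 58 of 66 pairs. In the rest of the map, at the distances found in T2, this held for 44.3% and 38.3% of the pairs. These backgrounds are not matched in distance, since the sub-TAD pairs lie at most 55 kb apart. In the rest of the map the ratio of HD3dif over HD3pr was 1.08 at 5 to 25 kb and 0.920 at 125 to 195 kb. Within the sub-TAD, the ratio of means was 1.18 for HD3dif over HD3pr, 1.06 for HD3pr over DT40 and 1.25 for HD3dif over DT40. Much of this depended on the correction. Without it, 41 of the 66 pairs were higher in HD3dif than in HD3pr, and 35 were higher than in DT40. Before it, the ratio of read pairs was 1.05 (1.03 to 1.08) for HD3dif over HD3pr, 0.971 (0.954 to 0.988) for HD3pr over DT40, which turns the direction, and 1.02 (1.00 to 1.04) for HD3dif over DT40. Read pairs divided by the mean of their map at the same distance gave 0.971, 0.927 and 0.901 in the same order, below 1 in each comparison. The 12 bins took a smaller part of all read pairs in HD3dif than in HD3pr, with log2 ratios of -0.17 to -0.023. The measured T2 bins further downstream did so too, with -0.127 to -0.0087, so in this comparison it was not particular to the sub-TAD. For HD3dif over DT40 the log2 ratios were -0.28 to -0.034 in the 12 bins and -0.18 to 0.091 downstream. For HD3pr over DT40 they were -0.257 to 0.026 and -0.113 to 0.155. Against DT40 the smaller shares thus reached further down in the sub-TAD. The part of these smaller shares in the contact ratios was not tested.

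Pairs within the downstream block, between the second border and the end of T2, had a mean contact of 314 units in HD3dif, 286 in HD3pr and 292 in DT40 over 276 measured pairs. The ratio for HD3dif over HD3pr was 1.10, with 1.04 (1.03 to 1.06) in read pairs. The part of the block between the border and the gap had the order of the sub-TAD. Its 45 pairs had a mean of 478 units in HD3dif, 412 in HD3pr and 380.0 in DT40, and 38 of the 45 (84.4%) were higher in HD3dif than in HD3pr. All these pairs are of short range. Over all T2 pairs up to 60 kb apart, which include them, 236 of 312 (75.6%) were higher, so the count is not read as a trait of this part. Here read pairs gave the same direction in each comparison, with ratios of 1.08 (1.05 to 1.11) for HD3dif over HD3pr, 1.12 (1.09 to 1.15) for HD3pr over DT40 and 1.21 (1.17 to 1.24) for HD3dif over DT40. Read pairs divided by the mean of their map at the same distance gave 0.974, 1.07 and 1.04 in the same order. This turned the direction for HD3dif over HD3pr. Contacts across the gap, 140 pairs, were lower in both HD3 maps than in DT40, with means of 212 units in HD3dif, 202 in HD3pr and 224 in DT40. Their read-pair ratios were 0.921 (0.897 to 0.946) for HD3dif over DT40 and 0.924 (0.903 to 0.945) for HD3pr over DT40. Divided by the mean of each map at the same distance, the ratios over DT40 were 1.02 for HD3dif and 0.932 for HD3pr. Before correction they were 0.999 and 0.958. Relative to distance, HD3dif thus lay near DT40 and HD3pr below it.

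Contacts between the sub-TAD and the downstream block, 288 pairs, had a mean of 145 units in HD3dif, 139 in HD3pr and 134 in DT40. Read pairs put HD3dif below HD3pr, with a ratio of 0.958 (0.940 to 0.977), and below DT40, with a ratio of 0.980 (0.961 to 0.999), so that both directions turned. HD3pr lay above DT40 in both readings, with ratios of 1.04 after correction and 1.02 (1.01 to 1.04) in read pairs.

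Contact in T2 fell more steeply with distance in HD3dif than in the other cell types. On log2 scales of contact and distance, from 10 to 195 kb, the slope was -0.70 in HD3dif, -0.60 in HD3pr and -0.59 in DT40. At 5 to 25 kb mean T2 contact was 517 units in HD3dif, 449 in HD3pr and 418 in DT40, and the ratio of HD3dif over HD3pr was 1.15, against 1.08 in the rest of the map. At 30 to 60 kb the ratio was 1.09 in T2 and 0.986 in the rest. At 65 to 120 kb it was 1.03 in T2 and 0.924 in the rest, and at 125 to 195 kb 0.960 and 0.920. After correction, the ratio thus went down with distance both in T2 and in the rest of the map, and in each band T2 lay higher than the rest. Before correction the ratio was 1.08 (1.06 to 1.09) in T2 and 1.11 (1.10 to 1.12) in the rest at 5 to 25 kb, and 0.995 (0.974 to 1.02) and 1.00 (0.993 to 1.01) at 30 to 60 kb. At 65 to 120 kb it was 0.961 (0.937 to 0.985) in T2 and 0.928 (0.918 to 0.938) in the rest, and at 125 to 195 kb 0.912 (0.877 to 0.948) and 0.935 (0.923 to 0.947). Before correction, T2 thus lay below the rest at 5 to 25 kb with intervals apart, while in the other bands the intervals overlapped.

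**Figure D3:**
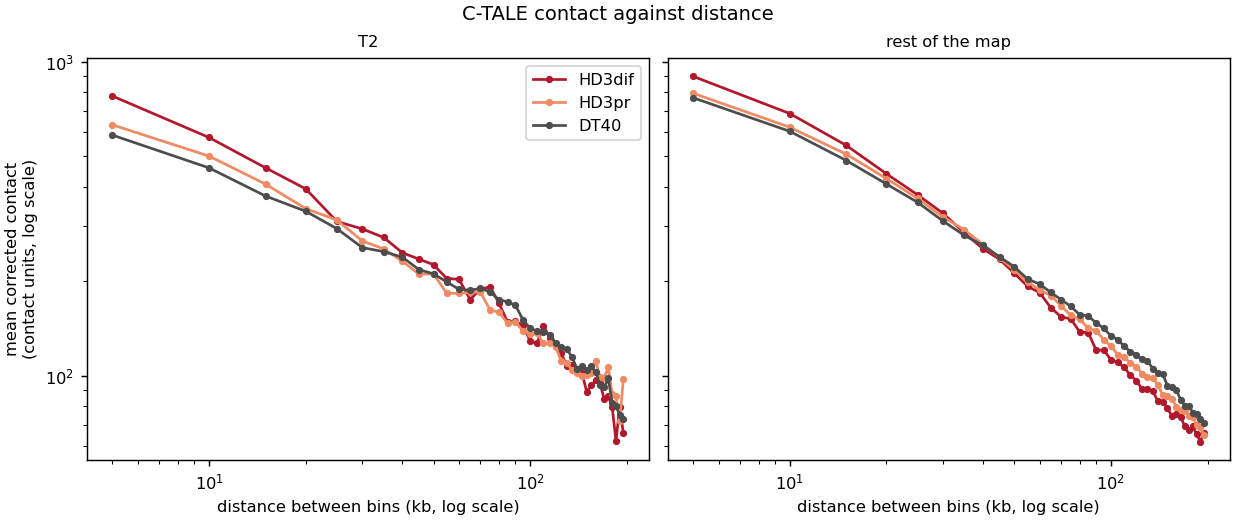
Mean corrected contact units against the distance between bins (both on log scales) for T2 (left) and the rest of the map (right) in HD3dif, HD3pr and DT40. In T2 the HD3dif line starts highest, at 779 units for neighbouring bins against 631 in HD3pr and 585 in DT40, and lies lowest over most of the longest distances, where few pairs stand behind each point.

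Over pairs more than 60 kb apart, T2 contact averaged 134 units in HD3dif, 133 in HD3pr and 141 in DT40. The ratio to DT40 was 0.947 for HD3dif, with 0.889 (0.870 to 0.907) in read pairs, and 0.940 for HD3pr, with 0.939 (0.923 to 0.956) in read pairs. Divided by the mean of each map at the same distance, the ratios to DT40 were 1.09 for HD3dif and 1.02 for HD3pr. Read pairs divided in this way gave 1.01 for HD3dif and 1.01 for HD3pr. Long-range contact of T2 was thus lower than in DT40 per map total. Relative to other pairs of the same map at the same distances, it was higher after correction and nearly equal before it.

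After correction, the insulation score at the second border was highest in HD3dif. The insulation score compares the mean contact across a position, over 25 kb on each side, with the average position of the map on the log2 scale, and a lower score means fewer contacts across. The second border was taken near an insulation minimum of these same maps, so the presence of a minimum there is not a result. The limits of T2 were also chosen with earlier results of these data known, so the low score at its start is not a result either. Within 3 bins of the border taken at 12125000, the score had its minimum at 12120000 in each cell type, with -0.37 in HD3dif, -0.45 in HD3pr and -0.59 in DT40. At 12125000 it was -0.31 in HD3dif, -0.42 in HD3pr and -0.53 in DT40. At the upstream border of T2, 12065000, the scores of both HD3 maps lay below that of DT40, with -0.78 in HD3dif, -0.79 in HD3pr and -0.58 in DT40. A further dip stood at 12145000, with -0.40 in HD3dif, -0.43 in HD3pr and -0.47 in DT40, and in HD3dif it was deeper than that at the border. The depth of the dip, from the highest score upstream of it in T2 to its minimum, gave another order, with 0.553 in HD3dif, 0.488 in HD3pr and 0.669 in DT40. Which HD3 map had the weaker border thus depended on the measure, while after correction DT40 had the lowest score and the deepest dip. Before correction, the score at 12125000 was -0.020 in HD3dif, 0.047 in HD3pr and -0.081 in DT40. In HD3dif and DT40 this was a shallow local minimum, and in HD3pr the local minimum was 0.044 at 12130000. The scores at 12140000 were lower still, with -0.067 in HD3dif, -0.0016 in HD3pr and -0.11 in DT40, so the border was not the lowest position of its surroundings before correction.

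**Figure D4:**
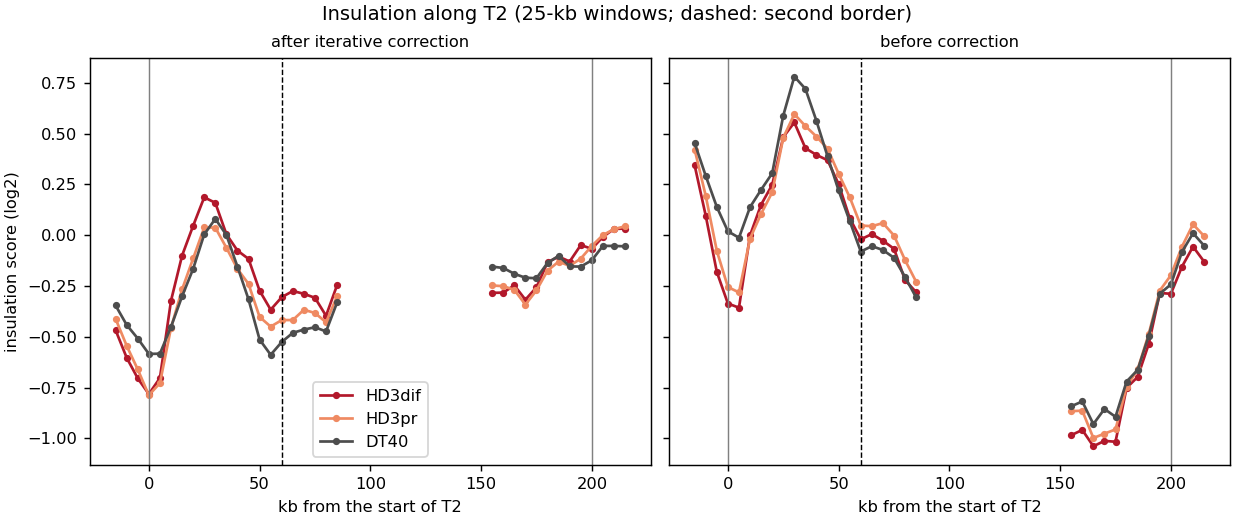
Insulation score (log2, 25-kb windows) against position in kb from the start of T2, after iterative correction (left) and before it (right). Grey lines mark the ends of T2 and the dashed line the second border. After correction the score there was -0.31 in HD3dif, -0.42 in HD3pr and -0.53 in DT40, and before it -0.020, 0.047 and -0.081 in the same order. Positions whose windows reach the gap have no score.

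Few single bin pairs differed by much between cell types. Among T2 pairs with at least 20 read pairs over both maps, 10 of 602 were higher in HD3dif than in HD3pr by over 1.5-fold, against 1.83% of all pairs of the map at these distances, and 13 were lower, against 7.59%. In HD3pr over DT40, 5 of 617 were higher and 29 lower, against 1.12% and 5.34%. In HD3dif over DT40, 27 of 607 were higher and 29 lower, against 1.78% and 12.7%. These backgrounds share the range of distances of T2 but are not matched in distance. Of the 630 T2 pairs, 119 lay 125 to 195 kb apart, against 1306 of the 3555 other pairs. At these distances the ratio of HD3dif over HD3pr in the rest of the map was 0.920. The smaller shares of lower pairs are therefore not read as a trait of T2. Before correction the counts were 6 higher and 24 lower for HD3dif over HD3pr, and 14 higher and 53 lower for HD3dif over DT40, so these counts depended on the correction.

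The pairs that changed most were named among those with at least 50 read pairs in each of the 2 maps compared. For HD3dif over HD3pr, contact between the bins starting at 12075000 and 12095000, 20 kb apart in the sub-TAD, was 576 units in HD3dif, 389 in HD3pr and 384 in DT40. After correction HD3dif stood apart from both other maps here, with a ratio of 1.48 over HD3pr. Its read-pair ratio over HD3pr was 1.38 (1.17 to 1.62), and that over DT40 was not taken. Before correction the pair held 265 read pairs in HD3dif, 327 in HD3pr and 401 in DT40. Just beyond the second border, the bins starting at 12125000 and 12130000 had 891 units in HD3dif, 609 in HD3pr and 547 in DT40, a ratio of 1.46 with 1.35 (1.16 to 1.58) in read pairs. The largest ratio, 1.51, belonged to a pair 110 kb apart (12100000 and 12210000), with 193 units in HD3dif, 128 in HD3pr and 119 in DT40 but only 84 read pairs in HD3dif. Its read-pair ratio was 1.49 (1.10 to 2.01). Among the 367 pairs that met the filter, the 5 smallest ratios, 0.772 to 0.817, all belonged to pairs of a sub-TAD bin with a bin past the border. Such pairs make up 288 of the 630 T2 pairs and were also among the 5 largest ratios. The read-pair interval included 1 for 12075000 with 12140000 (0.550 to 1.03) and for 12095000 with 12145000 (0.506 to 1.001). It also did so for 12070000 with 12130000 (0.542 to 1.05). The bins starting at 12110000 and 12140000 had 196 units in HD3dif and 248 in HD3pr, a ratio of 0.790 with 0.690 (0.545 to 0.868) in read pairs.

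Against DT40, the largest ratio in HD3dif belonged to the bins starting at 12105000 and 12215000, with 169.9 units in HD3dif, 133 in HD3pr and 93.2 in DT40 (ratio 1.82 for HD3dif over DT40, and 1.63, 1.13 to 2.36, in read pairs). The second bin of T2 and its downstream neighbour (12070000 and 12075000) had 887 units in HD3dif, 626 in HD3pr and 517 in DT40, a ratio of 1.71 with 1.28 (1.11 to 1.48) in read pairs. The 5 smallest ratios of HD3dif over DT40 among the pairs that met the filter lay in the downstream block, from 0.691 to 0.767. This block holds 276 of the 630 T2 pairs. The read-pair interval included 1 for 12200000 with 12240000 (0.596 to 1.05) and for 12145000 with 12220000 (0.603 to 1.04). For HD3pr over DT40 the smallest ratio was 0.571, between 12225000 and 12255000, with 178 units in HD3pr and 312 in DT40. A further 3 of the 5 smallest shared the bin starting at 12155000, which had 177 units with the bin at 12235000 in HD3pr and 301 in DT40. As these pairs were picked for their size, their intervals are descriptions.

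The contact profiles of single bins differed along the sub-TAD. The bin starting at 12070000, the second of T2, had a mean contact of 470.3 units with the other sub-TAD bins in HD3dif, 383 in HD3pr and 362 in DT40. It was higher in HD3dif than in HD3pr with 10 of 11 partners, and the ratio of read pairs was 1.15 (1.09 to 1.21). Over DT40, its read-pair ratio with the sub-TAD was 1.03 (0.979 to 1.08) for HD3dif. For HD3pr over DT40 it was 0.898 (0.858 to 0.940), which turns the direction. After correction, this bin had 119 units with the downstream block in each of the 3 maps. Before correction, its read-pair ratios there were 0.886 (0.821 to 0.954) for HD3dif over DT40 and 0.922 (0.866 to 0.983) for HD3pr over DT40. The bin with the highest RNA coverage, starting at 12095000, had 544 units with the sub-TAD in HD3dif, 457 in HD3pr and 437 in DT40, and a read-pair ratio of HD3dif over HD3pr of 1.05 (1.01 to 1.10). The bin starting at 12110000, second in RNA coverage upstream of the border, had 503, 409 and 388 units in the same order. Over DT40, the read-pair ratios of the bins at 12095000 and 12110000 were 1.02 (0.979 to 1.07) and 1.06 (1.01 to 1.11) for HD3dif. For HD3pr over DT40 they were 0.969 (0.933 to 1.01) and 0.996 (0.956 to 1.04), so HD3pr did not lie above DT40 before correction. The first bin of T2 differed from these. Its contact with the sub-TAD was 329 units in HD3dif and 299.7 in HD3pr with a read-pair ratio of 0.993 (0.937 to 1.05), while its contact with the downstream block was 112 in HD3dif, 130 in HD3pr and 113 in DT40, with a read-pair ratio of HD3dif over HD3pr of 0.840 (0.781 to 0.903). HD3pr was thus the map that stood out for contacts between the first bin and the far end of T2.

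5C, which counts ligations between chosen HindIII fragments, covered T2 with 36 pairs of primers and gives a spread between replicates. In the deposited tables the strongest partner of a primer lay at a median of 70.4 and 71.9 kb on the 2 axes as named, and at 11.3 and 10.48 kb with the axes exchanged, so the exchanged reading was used, a choice made after seeing the data. Of the 36 pairs, 0 were called by edgeR's quasi-likelihood test (Benjamini-Hochberg adjusted p below 0.05 over 8212 primer pairs) in any comparison, against 0.0% of all pairs in either direction for HD3dif over HD3pr, and 0.0365% higher and 0.0% lower for HD3pr over DT40 and for HD3dif over DT40. At an unadjusted p below 0.05 there were 1 higher and 3 lower, 3 higher and 2 lower, and 2 higher and 2 lower in these comparisons in the same order, and DESeq2 called 2, 4 and 2 pairs. The shares of all primer pairs that passed these 2 criteria were not taken, so these counts are not read as a trait of T2. The 36 pairs took 1.38% and 1.39% of all 5C reads in HD3dif, 1.72% and 1.61% in HD3pr, and 1.57% and 1.56% in DT40. The HD3dif libraries were the lowest without overlap, whereas the part of T2 in the C-TALE map was highest in HD3dif. These parts are of unlike wholes and cannot be set directly against each other. The 5C primers cover a longer region that takes in a gene desert, and they sample few of the short distances of the C-TALE map. The median log2 change of the 36 pairs was -0.22 for HD3dif over HD3pr, with 8 pairs above 0, and -0.53 for HD3dif over DT40, with 9 above 0, against 0.067 and 0.083 over all primer pairs. For HD3pr over DT40 it was -0.28, with 14 above 0, against 0.029.

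CPM are reads per 1000000 reads of the library, with the library size adjusted by edgeR's TMM factor. The 2 primer pairs within the sub-TAD averaged 2025 and 1859 CPM in HD3dif, 2031 and 1640 in HD3pr, and 1008 and 922 in DT40. The 20 pairs within the downstream block averaged 384 and 428, 516 and 432, and 500 and 509 in the same order. The 14 pairs between the blocks averaged 207 and 166, 187 and 239, and 238 and 234. HD3dif was thus lowest without overlap in the downstream pairs but not in the sub-TAD pairs. The primer pair at 12072411 and 12083275, 10.9 kb apart in the sub-TAD, had 2072 and 2194 CPM in HD3dif. It had 2703 and 2223 in HD3pr, and 845 and 738 in DT40. Both HD3 groups lay above DT40 without overlap, and HD3dif lay close below HD3pr. The log2 change was 1.43 for HD3dif over DT40 (SE 0.21, edgeR adjusted p = 0.26) and 1.64 for HD3pr over DT40 (SE 0.21, adjusted p = 0.133), while DESeq2 gave adjusted p = 2.22e-13 and 1.48e-18. C-TALE contact between the 2 bins that hold these primers (12070000 and 12080000) was 619.8 units in HD3dif, 454 in HD3pr and 445 in DT40. Thus HD3dif stood apart in corrected C-TALE and DT40 in 5C, whose counts were not corrected in this way. Before correction the C-TALE pair had 268 read pairs in HD3dif, 350 in HD3pr and 438 in DT40. The measured bins of these maps held 348937, 592535 and 607486 read pairs, so HD3dif lay near DT40 there and HD3pr was lowest. The difference between the assays was not tested. Near the downstream end of T2, the primers at 12224460 and 12256623 had 399 and 502 CPM in HD3dif, 1603 and 1197 in HD3pr, and 554 and 795 in DT40. HD3pr was the high group there (HD3dif over HD3pr -1.64 on the log2 scale, SE 0.31, edgeR adjusted p = 0.889).

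RNA-seq coverage, which did not enter the choice of T2, was higher over most of the domain after induction. Of the 40 bins, 33 had a higher and 1 a lower coverage in HD3dif, set against HD3pr (limma, Benjamini-Hochberg adjusted p below 0.05 over all 102276 bins of the genome tested, and a log2 change beyond 0.6), against 37.0% and 11.9% of all bins. In HD3pr over DT40, 25 were higher and 1 lower, against 33.5% and 24.6%, but only 12 were higher without HD3pr replicate 2 and 16 without DT40 replicate 2. In HD3dif over DT40, 35 were higher and 1 lower, against 48.9% and 23.9%. Coverage ran without a break through many neighbouring bins, so the bins in these counts are not independent. The median log2 change over T2 was 1.08, 0.79 and 1.92 in these comparisons in the same order, and over all bins 0.42, 0.15 and 0.71. The unit is the mean coverage per base for 1e+09 covered bases in the library, and log2 changes carry a pseudocount of 0.01. A change in cells of a type and a change in RNA per cell cannot be told apart in these bulk samples.

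The largest changes in coverage lay within the globin sub-TAD. In the bin starting at 12095000, coverage was 64.4 and 57.2 in HD3dif, 3.69 and 3.76 in HD3pr, and 0.0081 and 0.0036 in DT40. HD3dif exceeded HD3pr by 4.02 on the log2 scale (SE 0.16, limma adjusted p = 0.000198). The next bin upstream, starting at 12090000, had 13.9 and 13.01 in HD3dif, 0.73 and 0.69 in HD3pr, and 0.00023 and 0.0014 in DT40. The groups did not overlap in either bin, and DT40 was near 0 in both. The bins starting at 12110000 and 12115000 had 23.8 and 24.4, and 21.9 and 21.4, in HD3dif, against 2.30 and 2.28, and 1.78 and 1.75, in HD3pr. These 2 bins were above DT40 in HD3pr as well, by 2.60 and 2.79 on the log2 scale. In all, 11 of the 12 sub-TAD bins were higher in HD3dif than in HD3pr, with a median log2 change of 2.74, against 0.96 over the 28 downstream bins.

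The bins at the second border did not follow this. The last bin of the sub-TAD, starting at 12120000, had 12.2 and 11.8 in HD3dif, 10.6 and 10.6 in HD3pr, and 11.7 and 12.8 in DT40, and passed the test in no comparison. The first bin past the border, starting at 12125000, was the 1 bin lower in HD3dif than in HD3pr, with 0.223 and 0.204 in HD3dif, 0.322 and 0.336 in HD3pr, and 0.431 and 0.424 in DT40 (log2 change -0.60, SE 0.13, limma adjusted p = 0.0125). This bin had the opposite order in C-TALE, with 330.4 units with the sub-TAD in HD3dif, 286 in HD3pr and 272 in DT40. Without HD3pr replicate 2 or without HD3dif replicate 2 its RNA change was -0.58 and -0.54, and the bin was no longer called.

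Downstream of the border, coverage in the 7 bins starting at 12150000 to 12180000 never fell to 0 in any library, and in HD3dif replicate 1 it stayed between 55 and 86 reads at each base. In each bin starting at 12150000 to 12175000 the lowest base had the same depth, 29 in DT40 replicate 1. It was 24 in DT40 replicate 2 and 52 in HD3pr replicate 1. How reads that cross introns were counted in these tracks is not given in the sources used here. Whether such reads make up this flat coverage was not tested, so it is not read as transcription of each bin. In both DT40 libraries and HD3pr replicate 1, coverage also stayed above 0 in the bins starting at 12185000 to 12220000 and at 12065000 to 12080000. It did so in those libraries in the bins starting at 12105000 and 12110000 as well. The changes of all these bins, and the counts of bins that include them, are therefore not counted as independent of each other. The bin starting at 12235000 was high in both HD3 groups, with 0.386 and 0.516 in HD3dif, 0.618 and 0.684 in HD3pr, and 0.0436 and 0.0408 in DT40. It exceeded DT40 by 3.66 on the log2 scale in HD3pr (SE 0.19, limma adjusted p = 3.8e-05) and did not pass the test between HD3dif and HD3pr (-0.53, adjusted p = 0.0591).

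**Figure D5:**
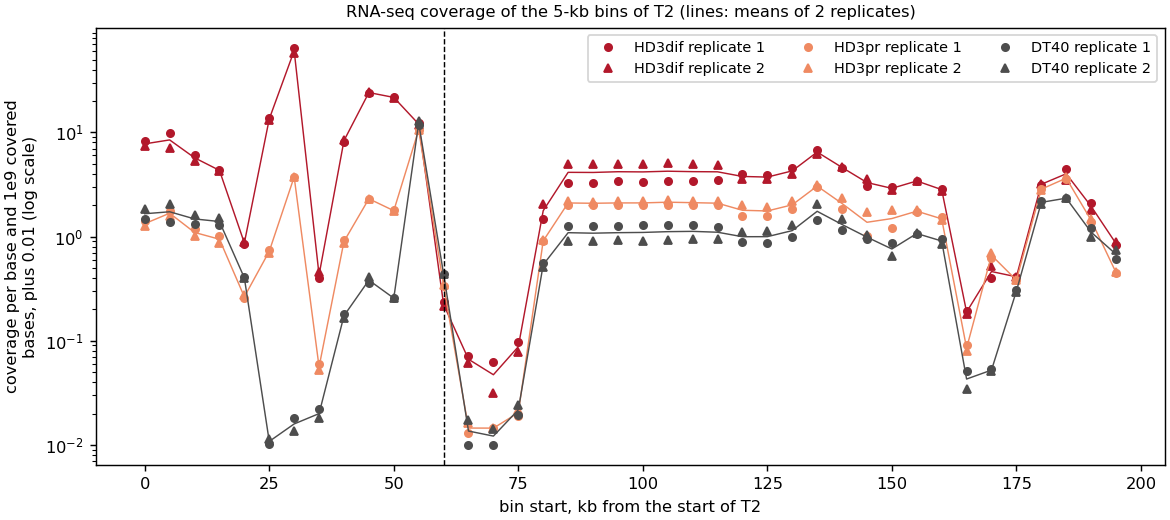
RNA-seq coverage of the 5-kb bins of T2 (mean per base and 1e+09 covered bases, plus 0.01, log scale) against the start of the bin in kb from the start of T2. Points are the 2 libraries of HD3dif, HD3pr and DT40, lines their means, and the dashed line the second border. HD3dif reaches 64.4 and 57.2 in the bin of highest coverage, against 3.69 and 3.76 in HD3pr, and the 3 groups meet in the last bin before the border.

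Gene counts of the T2 genes, and erythroid and lymphoid marker genes, were not analysed here, since the files name genes by identifiers that the reference table used here does not pair with symbols. The labelled cell types were therefore not checked against their markers beyond the coverage of T2 itself.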

How the data were processed

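The members and lists were chosen with earlier results of these data known. For C-TALE, the authors mapped reads to the region with hiclib and Bowtie2 2.2.1, summed 2 replicates per cell type and deposited 1 map of read-pair counts and 1 of iteratively corrected contacts (signal) per cell type. Contacts of a bin with itself were left out. Own iterative correction of the counts gave contacts that correlated with the deposited ones at r = 0.9999 over T2. Named pairs were the 5 largest and 5 smallest ratios per comparison among pairs with at least 50 read pairs in each map, and named RNA bins the 5 largest changes either way.

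For 5C, the authors deposited read counts per primer pair, 5106079 to 6740556 per library. A column without a primer name (1 per library) was not used. Pairs with at least 10 reads in at least 2 libraries were fitted with edgeR 4.0.16 (TMM factors, all 6 libraries). DESeq2 1.42.0 was an alternative. For RNA-seq, the authors aligned reads with TopHat2 2.0.12 per the labels and deposited base coverage without scaling, 18255236189 to 27950289034 covered bases per library. Bins with a mean of at least 0.01 were fitted with limma 3.58.1. Scaling to TMM totals of the gene counts shifts all bins by -0.23 (HD3dif over HD3pr), 0.16 (HD3pr over DT40) and -0.068 (HD3dif over DT40) on the log2 scale.

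Maps were computed in Python 3.11.15 with numpy 2.4.6, and fits in R 4.3.3. The functions were tested on simulated data. Alternatives were the maps before correction, observed over expected values, other insulation windows, folds and filters, a common total over the distances of T2, thinning to the shallowest map, other pseudocounts, a replicate block and each library left out.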

Additional observations from a re-analysis of the deposited data

How the results depend on the processing

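Contact ratios of blocks depended on iterative correction and the cause was not tested. Before correction, the sub-TAD ratio was 1.05 for HD3dif over HD3pr, 0.971 for HD3pr over DT40 (turned) and 1.02 for HD3dif over DT40. The downstream block gave 1.04, 1.01 (turned) and 1.05 in the same order, contacts between the blocks 0.958 and 0.980 for HD3dif over HD3pr and over DT40 (both turned), and contacts beyond 60 kb 0.946 (turned) and 0.889. As observed over expected contact, the sub-TAD gave 1.09, 1.02 and 1.11, the downstream block 1.07, 0.947 and 1.01, contacts between the blocks 1.06, 1.09 and 1.16, and contacts beyond 60 kb 1.07, 1.02 (turned) and 1.09 (turned). Observed over expected contact before correction, added after the data were seen, gave 0.971, 0.927 and 0.901 for the sub-TAD (all turned), 1.02, 0.972 and 0.989 (turned) for the downstream block, 0.988 (turned), 1.05 and 1.04 between the blocks, and 1.01, 1.01 (turned) and 1.01 (turned) beyond 60 kb. With a common total over the distances of T2, the downstream ratio of HD3dif over HD3pr was 1.08, and that beyond 60 kb was 0.992 (turned). Insulation at the second border was -0.020 in HD3dif, 0.047 in HD3pr (turned) and -0.081 in DT40 before correction, and -0.49 in DT40 with a window of 3 bins. Slopes were -0.59, -0.57 and -0.49 in HD3dif, HD3pr and DT40 over 10 to 60 kb, -0.89, -0.68 and -0.82 beyond 60 kb, and -0.62 in HD3pr before correction. The counts of bins that kept a larger share within T2 were 35, 21 and 36 before correction, against 35, 23 and 36 after it. Correcting the read pairs anew, added after the data were seen, kept the direction of all block ratios. As this repeats the same kind of correction on the same counts, it is not an independent check of them.

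Counts past 1.5-fold moved with the filter. For HD3dif over HD3pr they were 17 higher and 20 lower with no filter on read pairs, 3 and 8 with at least 50 read pairs, 6 and 24 before correction, and 3 and 3 past 2-fold. For HD3pr over DT40 there were 1 higher with at least 50 read pairs, 1 higher and 3 lower past 2-fold, and 10 higher when thinned to the shallowest map. For HD3dif over DT40 there were 14 higher and 53 lower before correction, and 1 and 8 past 2-fold.

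In 5C, DESeq2 called 2, 4 and 2 primer pairs of T2, without the share over all primer pairs to set beside them. Leaving out any 1 library gave median log2 changes of the T2 pairs of -0.31 to -0.12 for HD3dif over HD3pr. They were -0.28 to -0.060 for HD3pr over DT40 and -0.53 to -0.30 for HD3dif over DT40. RNA bins of T2 lower in HD3dif than in HD3pr numbered 0 with a pseudocount of 0.1 and 2 with TMM totals, and those lower in HD3pr than in DT40 numbered 0 with either. Leaving out 1 library gave 24 to 33 higher and 0 to 1 lower for HD3dif over HD3pr, 12 to 25 higher and 1 to 2 lower for HD3pr over DT40 (12 without HD3pr replicate 2 and 16 without DT40 replicate 2), and 33 to 36 higher for HD3dif over DT40, with the lone library of a group assumed to vary like the others. The change of the bin starting at 12120000 in HD3dif over DT40 ranged from -0.096 to 0.030. The planned test of the T2 gene counts and its alternatives were not run, since the gene identifiers were not paired with symbols. Same-numbered replicates did not deviate together (correlations of -0.093, 0.059 and -0.19 in 5C and 0.010, -0.0083 and -0.042 in RNA-seq), and a replicate block left the 5C calls at 0 and the RNA bins at 33, 25 and 35 higher.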
